A study of Mus musculus with 75 samples.

Results

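The genes described here encode the enzymes that place or remove acetyl and methyl groups on histones, measured in nuclei of medium spiny neurons of the mouse nucleus accumbens. They were taken as the rows of the deposited count table whose mouse symbols stand on a list of 49 such enzymes, and all 49 were found among the table's 55401 gene identifiers. By role they comprise 13 deacetylases (Hdac1 to Hdac11, Sirt1 and Sirt2), 7 acetyltransferases, 16 lysine methyltransferases, 10 lysine demethylases and 3 arginine methyltransferases.

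Acetylation of histone tails by acetyltransferases loosens the contact of histones with DNA and marks active promoters and enhancers, and deacetylases reverse it. Lysine methylation acts by position: the Kmt2, Setd1 and Dot1l enzymes write marks found on active genes, whereas Ehmt1, Ehmt2, Setdb1, Suv39h1, Suv39h2 and the Ezh enzymes write marks found on silent ones, and the Kdm enzymes erase them. In the nucleus accumbens, a striatal region central to reward, several of these enzymes, among them Hdac5 and the dimethyltransferase Ehmt2 (G9a), are known from work on responses to cocaine in mice.

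The study crossed LSL-eGFP::L10a reporter mice with D1-Cre or D2-Cre mice, so that male offspring carried green fluorescent protein in cells with an active Drd1 or Drd2 driver. Nuclei from accumbens punches were sorted by that fluorescence, and libraries of total nuclear RNA were made from them. All mice received 1 intraperitoneal injection a day for 10 days, 30 days of withdrawal in the home cage and 1 challenge, and tissue was taken 1 h later. Each injection was saline or cocaine at 20 mg/kg, the drug being an inhibitor of dopamine reuptake.

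Group names give the Cre line and then 2 letters, read here as the repeated injections followed by the challenge (S, saline; C, cocaine). D1_CC (10 libraries) thus had cocaine at both steps, D1_CS (8 libraries) repeated cocaine and a saline challenge, D1_SC (9 libraries) repeated saline and a first cocaine challenge, and D1_SS (10 libraries) saline throughout. D2_CC (10 libraries), D2_CS (10 libraries), D2_SC (9 libraries) and D2_SS (9 libraries) were the same treatments in the D2-Cre line. The mouse ages are not given in the labels, and every animal carries the reporter and a Cre transgene. The labels do not say whether libraries came from separate animals, so p-values measure the spread between these libraries, which may in part be technical.

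Total counts ran from 19825 to 34870414 per library, with a median of 14893119, and 3 D2 libraries held under 30000 counts. The density of counts over 1738 olfactory and vomeronasal receptor genes, which are silent in brain, measured the background of each library. Expressed as a share of all counts, this background had a median of 18.0% in D1_SC, against 45.5% in D1_SS, and of 55.7% in D1_CC, against 63.9% in D1_CS. In the D2 line the group medians lay between 35.1% and 46.4%. A quality rule on depth, genes detected, the Drd1 to Drd2 ratio and correlation with the line was failed by 18 libraries, 4 of them in D1_SC and none in D1_SS or D2_SS. In 4 libraries labelled D1 (library 4 of D1_CS and libraries 4, 9 and 10 of D1_CC) the genes beside Drd1 and Drd2 read as the other line. As a check of the labels, Drd1 had a median of 61.3 CPM (counts scaled to a library total of 1000000) in D1_SC, against 136 CPM in D1_SS, and of 119 CPM in D1_CC, against 73.1 CPM in D1_CS, with 15.5 to 40.8 CPM in the D2 groups. Drd2 had medians of 53.2 to 84.0 CPM in the D1 groups and 542 to 789 CPM in the D2 groups. In D1_SC the Drd2 median of 84.0 CPM lay above the Drd1 median of 61.3 CPM. Library 5 of D1_SC, with 651445 counts, failed on the Drd1 to Drd2 ratio. The genes beside Drd1 and Drd2 were not read in that library. Summed CPM of 7 D1 neuron markers had a median of 496 in D1_SC, against 782 in D1_SS, and of 373 to 439 in the D2 groups. Summed CPM of 6 D2 neuron markers had a median of 1058 in D1_CC, against 246 in D1_CS and 339 in D1_SS, and of 1320 to 2058 in the D2 groups. No marker of the lists for astrocytes, oligodendrocytes, microglia and other cell types was at 0 in all libraries of a group. Silent receptor genes also collect counts in these libraries, so this does not tell whether those cell types are present. In bulk nuclei such as these, fewer cells of a type and less RNA per cell cannot be told apart.

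Most of the enzyme genes were detected above the background, at low multiples of it. Counts per kilobase of gene span were divided by the density of the silent receptor genes in the same library, over the 71 libraries with at least 1000000 counts. The median of this fold was over 1 for 48 of the 49 genes, over 2 for 39 and over 5 for 7, and 32 genes exceeded the background in every one of the 71 libraries.

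Kmt2a, the trithorax-group methyltransferase of histone H3 lysine 4, stood highest with a median of 8.67 times the background. It was followed by Hdac11, the sole class IV deacetylase, at 7.08 times and by the class I deacetylase Hdac2 at 6.14 times. Ehmt2 had 6.10 times the background, and Kmt2e, a family member that binds methylated lysine 4, had 5.57 times. These levels per kilobase set genes of unequal length on 1 scale, and the quartile ranges of all 48 pairs of neighbours in the order overlapped. The genes share libraries of unlike background, so this overlap does not tell whether neighbours keep their order within libraries, which was not tested.

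The lowest levels were those of Suv39h1, at 0.595 times the background, Suv39h2, at 1.03 times, and Hdac8, at 1.03 times. Suv39h1 and Suv39h2 trimethylate lysine 9 of histone H3 in heterochromatin, and Hdac8 is a class I deacetylase known for acting on cohesin. Hdac9 and Hdac4, class IIa deacetylases with very long genes, followed at 1.35 and 1.60 times. Suv39h1, Hdac8 and Hdac6 lie on the X chromosome, of which male mice have a single copy, and 10 silent receptor genes on that chromosome had a median density of 0.532 times that of the autosomal ones. Against that X-linked density the medians were 1.12 for Suv39h1, 1.94 for Hdac8 and 3.13 for Hdac6, a cytoplasmic tubulin deacetylase. Other genes overlap 99.0% of the span of Suv39h1, 74.2% of Suv39h2, 61.9% of Setd1a and 55.5% of Kat5, so the counts of these 4 genes are uncertain. A gene on the opposite strand overlaps 36.6% of Hdac8 and 20.8% of Sirt1, so their counts are uncertain in part as well.

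**Figure D1:**
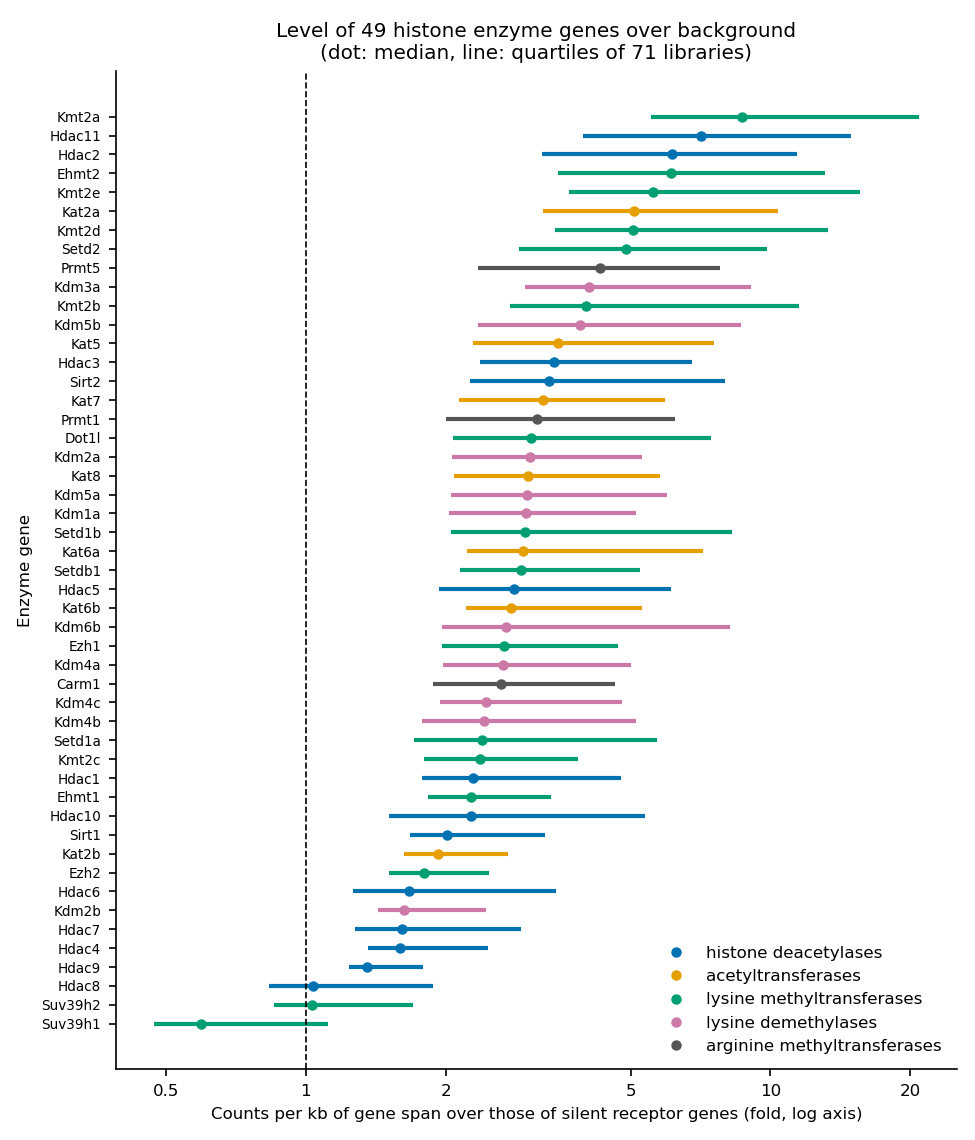
Level of each of the 49 enzyme genes as counts per kilobase of gene span over those of silent receptor genes in the same library (fold, log axis). Dots are medians and lines are quartiles over 71 libraries, coloured by role, and Kmt2a at 8.67 and Suv39h1 at 0.595 mark the ends of an order in which neighbouring quartile ranges overlap.

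A first cocaine challenge in D1 nuclei, D1_SC against D1_SS, gave more calls among these enzymes than any other comparison in edgeR with TMM scaling. This order did not hold in every fit. Limma with library weights called 13 here, against 34 in D1_CC against D1_SC and 31 in D1_CS against D1_SS. Over all 37721 genes it called 2736, 17029 and 16547 in these comparisons. The background covariate gave 0 here and 16 in D1_CC against D1_SC, beside 2 and 7045 of all genes. Library totals gave 1 and 10 in the same comparisons, beside 267 and 3415 of all genes. In the edgeR quasi-likelihood test with TMM scaling, a factor per library that sets most genes level, 23 of the 49 genes rose at a Benjamini-Hochberg adjusted p under 0.05 and none fell. Among all 37721 genes tested, 11.3% were called in either direction and 9.7% as higher. The median log2 change was 0.81 over the 49 enzymes and -0.07 over all genes, and 46 of the 49 had a positive change. The count rests on the scaling: with the RLE factor 18 of the 49 were called, all higher. On library totals with no factor 1 was called, Kmt2d. Of all 37721 genes these fits called 3068 and 267. TMM factors had a median of 0.799 in D1_SC, against 1.12 in D1_SS. Without a factor the median log2 change was 0.16 over the enzymes and -0.53 over all genes, so the distance between them was 0.87 with TMM, 0.89 with RLE and 0.69 on library totals. That distance was smaller in other fits: 0.55 with the background subtracted, 0.44 without libraries failing the quality rule, 0.41 with limma and 0.16 with the background covariate. It was 0.73 with DESeq2, 0.87 with a replicate block, 0.94 with no filter and 0.95 without the 4 libraries that read as the other line.

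By role, 10 of 16 lysine methyltransferases, 6 of 13 deacetylases, 4 of 10 lysine demethylases, 3 of 7 acetyltransferases and 0 of 3 arginine methyltransferases were called higher. The median log2 change was 0.94 for the lysine methyltransferases, 0.59 for the deacetylases, 0.61 for the demethylases, 1.10 for the acetyltransferases and -0.16 for the arginine methyltransferases.

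Kmt2d (ENSMUSG00000048154.17, chr15:98831669-98871204 of mm10, minus strand), which monomethylates histone H3 lysine 4 at enhancers, was the called gene with the smallest p. Its CPM had a lowest, median and highest value of 77.5, 117 and 214 in D1_SC, against 46.3, 61.7 and 102 in D1_SS. All 9 D1_SC libraries were above the D1_SS mean and 7 above its highest library, and the other 2 lay within its range. The log2 change was 1.66 ± 0.32 (SE, edgeR adjusted p = 0.00293) with TMM, and 0.97 (edgeR adjusted p = 0.0289) on library totals. Among libraries that pass the quality rule, Kmt2d averaged 103 ± 17.8 CPM in D1_SC and 64.5 ± 16.4 CPM in D1_SS (SD, n = 5 and 10 libraries), and the edgeR fit over those libraries gave 1.03 (adjusted p = 0.263).

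Kmt2e and Kmt2c moved with it. Kmt2e had 123, 232 and 339 CPM in D1_SC, against 84.2, 128 and 156 CPM in D1_SS (lowest, median, highest), with a log2 change of 1.48 ± 0.35 (edgeR adjusted p = 0.00641). Kmt2c, the paralog of Kmt2d with the same enhancer mark, had 166, 187 and 340.3 CPM in D1_SC, against 166, 183 and 199 CPM in D1_SS. In 3 of 9 libraries it exceeded the D1_SS highest and its log2 change was 0.90 ± 0.21 (edgeR adjusted p = 0.00553). Dot1l, the methyltransferase of histone H3 lysine 79 within transcribed genes, had 20.0, 70.7 and 203 CPM in D1_SC, against 39.1, 41.9 and 52.3 CPM in D1_SS. Library 9 of D1_SC alone held the highest Dot1l value, and 6 of 9 libraries exceeded the D1_SS highest (log2 change 1.52 ± 0.36, edgeR adjusted p = 0.00644).

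The bases upstream of the start sites of Kmt2d and Dot1l are printed, since both genes were called and their promoters are CpG-rich. Each run is the 250 bases before the RefSeq start (GRCm38.p6, the assembly of mm10), 5′ to 3′ on the gene's strand, with capitals marking the GC box GGGCGG on either strand, a motif bound by Sp factors. The run of Kmt2d is chr15:98871206-98871455 on the minus strand and that of Dot1l chr10:80754953-80755202 on the plus strand.
Kmt2d: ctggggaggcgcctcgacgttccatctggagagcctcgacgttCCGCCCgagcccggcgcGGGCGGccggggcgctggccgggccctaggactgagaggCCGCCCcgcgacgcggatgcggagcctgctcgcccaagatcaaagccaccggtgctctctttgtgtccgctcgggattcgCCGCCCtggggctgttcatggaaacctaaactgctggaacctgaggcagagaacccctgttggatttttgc
Dot1l: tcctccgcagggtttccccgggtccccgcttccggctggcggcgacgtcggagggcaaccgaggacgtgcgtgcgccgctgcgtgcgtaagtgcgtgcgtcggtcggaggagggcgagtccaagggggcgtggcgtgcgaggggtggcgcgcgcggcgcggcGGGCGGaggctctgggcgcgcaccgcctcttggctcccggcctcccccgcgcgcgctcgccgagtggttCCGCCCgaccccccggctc
Kmt2d holds 4 GC boxes with 26 CpG, and Dot1l 2 GC boxes with 44 CpG. Of the 37 enzyme genes with an entry in the RefSeq promoter table, 62.2% hold a GC box in these 250 bases, against 32.7% of all 32851 promoters, and their median CpG number is 17, against 6. These sets are unlike: each enzyme gene enters with the start nearest its GENCODE start, whereas all promoters include several starts for some genes. The starts used for Sirt1, Kat6b and Hdac4 lie 42669, 18336 and 15358 bases from the GENCODE start. Among the genes called higher in D1_SC, 12 of the 17 with an entry hold one.

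Of the 5 lysine 9 methyltransferases, Ehmt1, Ehmt2 and Setdb1 were called, while Suv39h1 and Suv39h2 had log2 changes of 0.05 ± 0.29 and 0.26 ± 0.19 (edgeR adjusted p = 0.920 and 0.352) with lower CPM medians in D1_SC. Ehmt2 had 25.8, 39.9 and 114 CPM in D1_SC, against 18.3, 32.9 and 41.4 CPM in D1_SS, with 8 of 9 libraries above the D1_SS mean and a log2 change of 1.26 ± 0.39 (edgeR adjusted p = 0.0277). Setdb1, which trimethylates lysine 9 over repeats, had 23.8, 37.3 and 101 CPM in D1_SC, against 29.0, 34.5 and 38.9 CPM in D1_SS. Its D1_SC libraries lay above the D1_SS highest in 4 of 9 and under its lowest in 1 (log2 change 1.02 ± 0.28, edgeR adjusted p = 0.0168). Setd1b, Kmt2b, Setd1a and Ehmt1, the partner of Ehmt2, completed the 10 called methyltransferases with log2 changes of 1.32, 0.98, 1.01 and 0.66. The Polycomb methyltransferases Ezh1 and Ezh2 did not pass, with log2 changes of 0.16 ± 0.26 and 0.02 ± 0.18 (edgeR adjusted p = 0.700 and 0.946).

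Among the demethylases, Kdm6b (Jmjd3), the eraser of Polycomb lysine 27 methylation and a gene induced by stimuli in many cells, was called. It had 9.21, 21.9 and 49.4 CPM in D1_SC, against 10.3, 13.9 and 20.7 CPM in D1_SS, and 8 of 9 libraries were above the D1_SS mean. Its log2 change was 1.43 ± 0.33 (edgeR adjusted p = 0.00561), and 1.10 (adjusted p = 0.235) without the libraries that fail the quality rule. Kdm4c, which removes lysine 9 methylation, had 124, 159.9 and 818 CPM in D1_SC, against 123, 138 and 155 CPM in D1_SS (log2 change 1.55 ± 0.30, edgeR adjusted p = 0.00306). The 2 highest values, 818 CPM in library 5 and 358 CPM in library 1, were in libraries that fail the quality rule, and the passing libraries averaged 142 ± 13.6 CPM in D1_SC and 139 ± 10.0 CPM in D1_SS (SD). Kdm5a, which erases lysine 4 methylation, had 76.3, 88.3 and 424 CPM in D1_SC, against 54.9, 81.2 and 88.6 CPM in D1_SS. Library 5 held the highest value and the next had 111 CPM, and the log2 change of 1.36 ± 0.34 (edgeR adjusted p = 0.00845) was 0.57 (edgeR adjusted p = 0.128) without that library. Kdm5b, its paralog, had a log2 change of 1.14 ± 0.30 (edgeR adjusted p = 0.0120).

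Of the acetyltransferases, the MYST-family genes Kat6a and Kat6b and the coactivator Kat2b (PCAF) were called. Kat6b had 173, 233 and 361 CPM in D1_SC, against 175, 194 and 209.7 CPM in D1_SS, and 6 of 9 libraries exceeded the D1_SS highest (log2 change 1.13 ± 0.26, edgeR adjusted p = 0.00536). Kat6a had a log2 change of 1.10 ± 0.27 (edgeR adjusted p = 0.00802) with 8 of 9 libraries above the D1_SS mean. Kat2b had 47.8, 58.5 and 348 CPM in D1_SC, against 58.5, 68.1 and 81.7 CPM in D1_SS. The D1_SC median lay under that of D1_SS, and the call of 1.13 ± 0.28 (edgeR adjusted p = 0.00873) came down to 0.23 (edgeR adjusted p = 0.200) without library 5 and to 0.41 (edgeR adjusted p = 0.206) on library totals.

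Of the deacetylases, Hdac4, Hdac5, Hdac6, Hdac7, Hdac8 and Sirt2 were called. Hdac5, a class IIa enzyme that shuttles out of the nucleus with activity, had 7.68, 43.7 and 93.8 CPM in D1_SC, against 27.1, 33.6 and 52.1 CPM in D1_SS (log2 change 0.99 ± 0.30, edgeR adjusted p = 0.0250). Hdac8 had 66.9, 104 and 152 CPM in D1_SC, against 62.8, 86.1 and 103 CPM in D1_SS (log2 change 1.01 ± 0.21, edgeR adjusted p = 0.00360), with 5 of 9 libraries above the D1_SS highest. Hdac7, another class IIa enzyme, had 16.7, 28.7 and 196 CPM in D1_SC, against 26.9, 29.4 and 55.5 CPM in D1_SS, with the medians in reverse order to its log2 change of 1.39 ± 0.32 (edgeR adjusted p = 0.00536).

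Hdac4 had 93.9, 127 and 158 CPM in D1_SC, against 123, 146 and 195 CPM in D1_SS, and only 3 of 9 libraries were above the D1_SS mean. Its call of 0.41 ± 0.14 (edgeR adjusted p = 0.0485) with TMM turned to -0.18 (edgeR adjusted p = 0.334) on library totals. Hdac4, Hdac7 and Kat2b were thus the 3 of 23 called genes whose CPM median was lower in D1_SC, and with the TMM factor all 23 medians were higher. Sirt1, the NAD-dependent deacetylase, had 16.3, 37.3 and 134 CPM in D1_SC, against 41.4, 45.4 and 47.8 CPM in D1_SS, and did not pass (log2 change 0.59 ± 0.24, edgeR adjusted p = 0.0886). Prmt1, the main asymmetric arginine methyltransferase, had 0, 6.44 and 19.8 CPM in D1_SC, against 5.71, 15.8 and 21.6 CPM in D1_SS, with a log2 change of -0.30 ± 0.38 (edgeR adjusted p = 0.601).

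**Figure D2:**
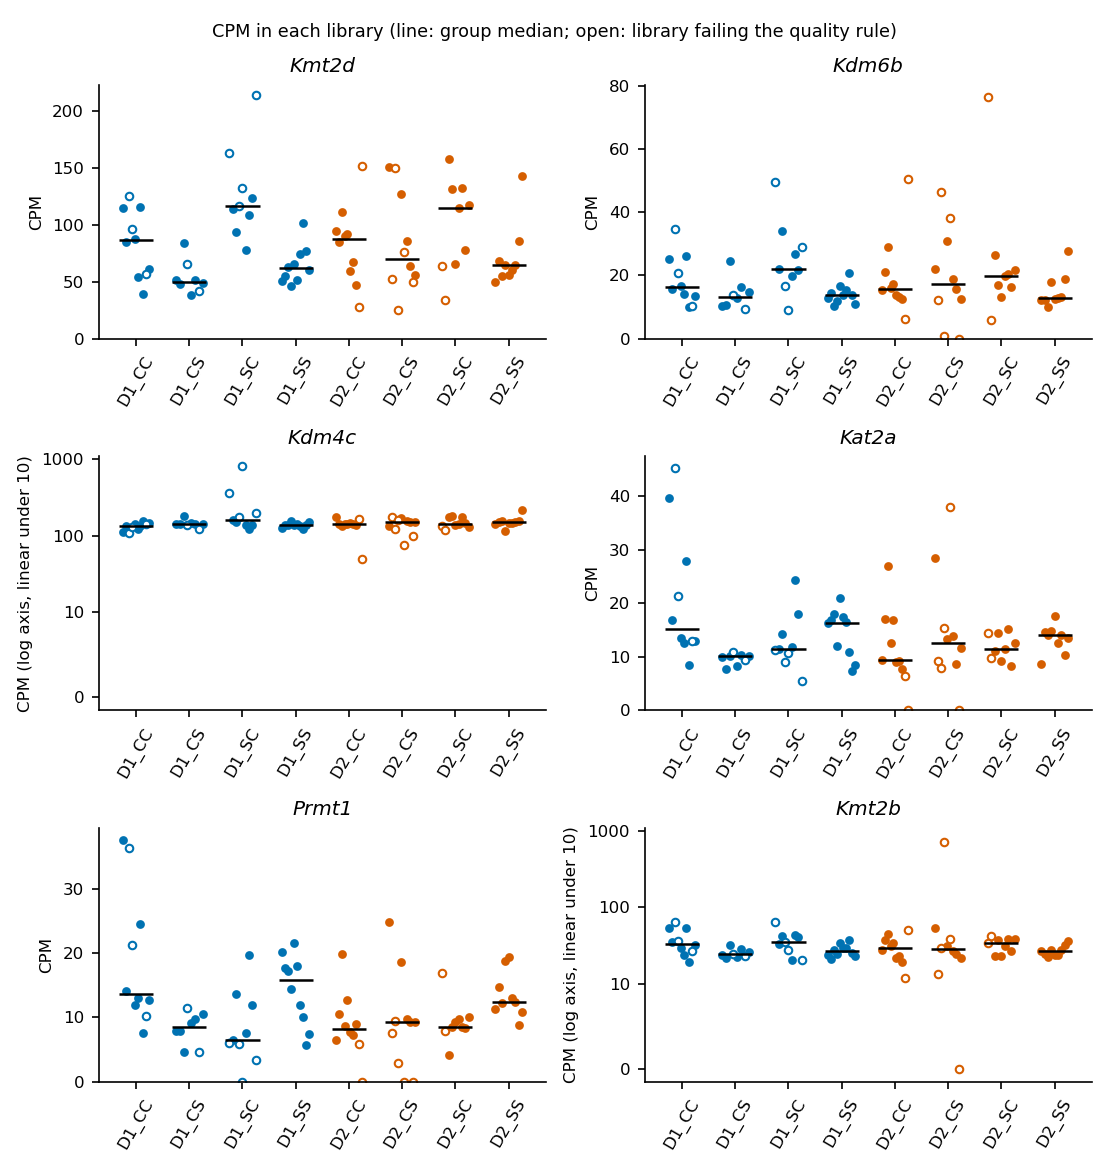
CPM of Kmt2d, Kdm6b, Kdm4c, Kat2a, Prmt1 and Kmt2b in each of the 75 libraries by group (D1 blue, D2 orange). Lines are group medians and open points are libraries failing the quality rule; the Kdm4c and Kmt2b axes are logarithmic above 10 CPM. Kmt2d has a median of 117 CPM in D1_SC and 61.7 CPM in D1_SS, while the highest Kdm4c and Kmt2b values are single open points.

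The calls of this comparison moved with the background and with a few libraries. The 3 D1_SC libraries numbered 2, 4 and 9 had backgrounds of 8.10%, 5.67% and 5.85% and genes over 100 kb took 64.1%, 63.2% and 61.7% of all their counts, against a D1_SS median of 50.8%. Leaving out library 2 or library 4 left 3 called enzymes, library 9 left 5, library 5 left 9, and library 3 of D1_SS left 11, and over all 19 such fits the count ran from 3 to 30. The number of all genes called in these fits is not given here, so the swing is not read as particular to the enzymes. Kmt2d and Kdm4c were called in all 19, with smallest log2 changes of 1.24 and 0.75. Each of the other called genes missed the threshold in at least 1 of these fits. Without library 5 the log2 change was 0.38 for Hdac6, 0.56 for Hdac7, 0.54 for Setdb1 and 0.55 for Kmt2c. Without library 2 it was 0.10 for Hdac4, 0.64 for Hdac8 and 0.28 for Ehmt1. It was 0.54 for Sirt2 without library 4, and 0.89 for Dot1l and 0.59 for Setd1a without library 9, and none of these values passed. Without the libraries that fail the quality rule, 0 of 49 were called (16 at an unadjusted p under 0.05), as with the background share as a covariate (21 at an unadjusted p under 0.05). The median log2 change of the enzymes was then 0.39 and 0.16, against 0.81. Summed CPM of 7 oligodendrocyte markers had a median of 323 in D1_SC (highest 929, in library 5), against 211 in D1_SS, and that of 6 astrocyte markers 336 in D1_SC, against 236 in D1_SS. In the edgeR test 5 of 7 oligodendrocyte, 1 of 6 astrocyte, 5 of 7 medium spiny neuron and 2 of 5 cortical glutamatergic neuron markers were called higher. Of all genes 9.7% were called higher. Summed CPM of the medium spiny neuron markers had a median of 3503 in D1_SC, against 2778 in D1_SS, and that of the cortical neuron markers 107 in D1_SC, against 95.8 in D1_SS. All other lists had lower medians in D1_SC than in D1_SS. Endothelial cells had 140 against 224, interneurons 106 against 144 and microglia 124 against 149. Oligodendrocyte precursors had 29.0 against 43.0, and choroid plexus and ependyma 21.8 against 41.2. D1 neurons had 496 against 782, and D2 neurons 285 against 339. The part of these cell types in the result was not tested.

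**Figure D3:**
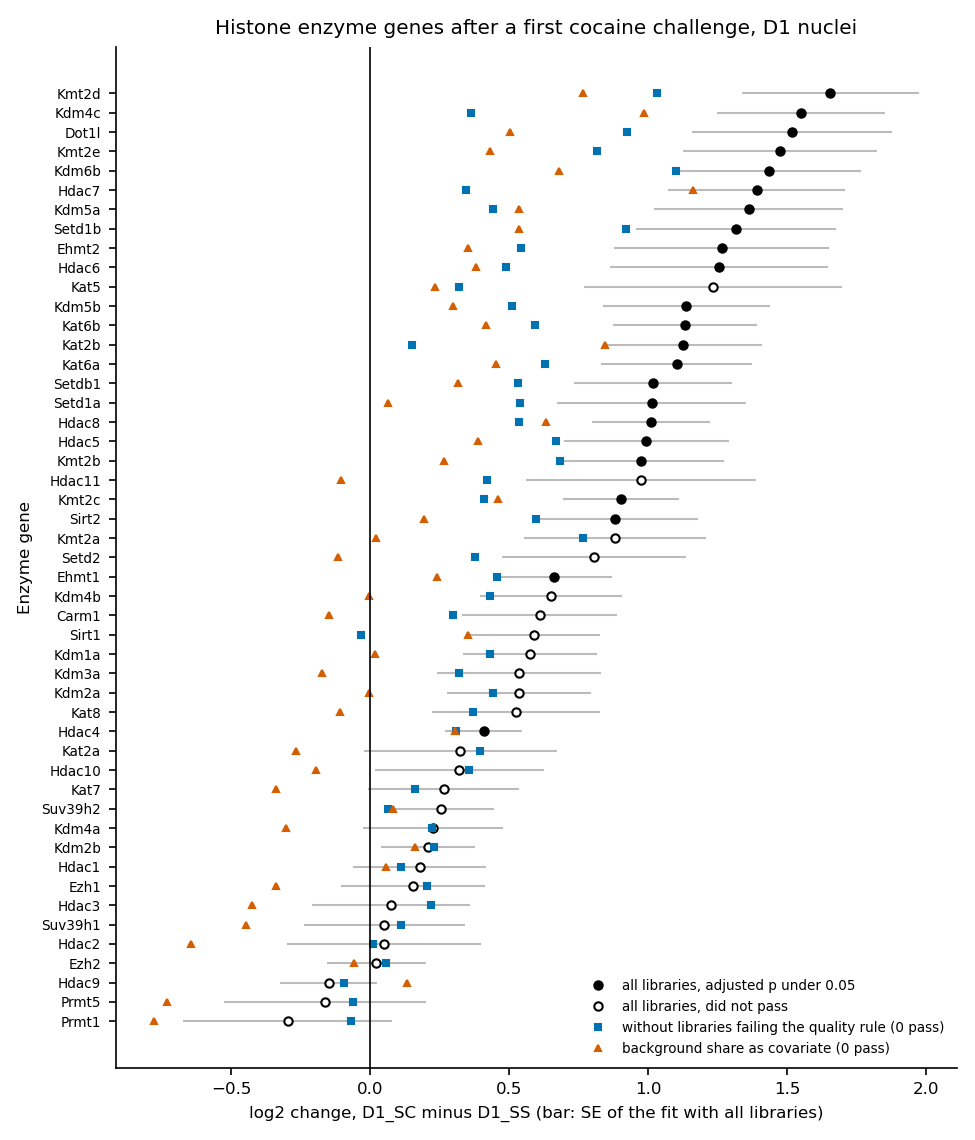
Log2 change of each of the 49 enzyme genes, D1_SC minus D1_SS, with its SE. Filled circles passed the edgeR test in the fit of all D1 libraries (23 genes, Kmt2d highest at 1.66), and blue squares and orange triangles show the same change without libraries failing the quality rule and with the background share as a covariate, where 0 genes passed.

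A cocaine challenge after repeated cocaine, D1_CC against D1_CS, called fewer enzymes, 1 of which was also called after a first challenge. Of the 49 enzymes 6 rose and none fell in the edgeR test, where 8.31% of the 37721 genes were called in either direction and 8.28% as higher. They were the acetyltransferases Kat2a and Kat7, the arginine methyltransferases Prmt1 and Prmt5, Ehmt2 and Hdac2. The median log2 change was 0.47 over the 49 enzymes and -0.09 over all genes. Ehmt2 was the 1 gene called here and in D1_SC against D1_SS (1 of 6 here, 1 of 23 there). With RLE scaling 2 enzymes were called, Kat2a and Prmt1, and on library totals 0 (14 at an unadjusted p under 0.05). Of all 37721 genes these fits called 674 and 0.

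Kat2a (GCN5, ENSMUSG00000020918.14, chr11:100704746-100712465 of mm10, minus strand) is the acetyltransferase of the SAGA and ATAC coactivator complexes. It had 8.49, 15.2 and 45.2 CPM in D1_CC, against 7.64, 10.1 and 10.9 CPM in D1_CS (lowest, median, highest), and 9 of 10 D1_CC libraries were above the D1_CS mean. Its log2 change was 1.58 ± 0.37 (edgeR adjusted p = 0.0170) with TMM and 1.14 (edgeR adjusted p = 0.0656) on library totals. Kat7, the MYST enzyme that acetylates histone H3 lysine 14, had 29.7, 41.3 and 81.0 CPM in D1_CC, against 25.8, 32.3 and 36.5 CPM in D1_CS, with 8 of 10 libraries above the D1_CS highest (log2 change 0.96 ± 0.28, edgeR adjusted p = 0.0291).

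The upstream bases of these acetyltransferase genes are printed as examples picked because both hold the letters TGACG. Those of Kmt2d and Dot1l above do not hold them, and neither do those of Ehmt2 and Hdac2, also called here. The printed runs are therefore no comparison of the genes called in the 2 comparisons. Capitals mark the letters TGACG on either strand, a part of the cyclic AMP response element bound by CREB. The run of Kat2a is chr11:100712468-100712717 and that of Kat7 chr11:95310247-95310496 of GRCm38.p6, both on the minus strand, from RefSeq.
Kat2a: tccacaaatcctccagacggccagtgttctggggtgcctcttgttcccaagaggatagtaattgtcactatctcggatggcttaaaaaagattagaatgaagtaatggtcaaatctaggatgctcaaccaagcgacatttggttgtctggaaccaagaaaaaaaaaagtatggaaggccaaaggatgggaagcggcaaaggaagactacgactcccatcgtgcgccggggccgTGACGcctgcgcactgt
Kat7: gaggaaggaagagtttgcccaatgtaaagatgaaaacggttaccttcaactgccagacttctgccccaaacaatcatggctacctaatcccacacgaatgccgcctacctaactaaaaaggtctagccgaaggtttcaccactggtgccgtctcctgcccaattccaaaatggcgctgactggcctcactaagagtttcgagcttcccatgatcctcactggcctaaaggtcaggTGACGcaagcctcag
TGACG stands in 4 of the 6 promoters of the genes called in D1_CC against D1_CS, in 3 of the 17 with an entry among those called in D1_SC against D1_SS, in 14 of the 37 enzyme promoters (37.8%) and in 17.8% of all 32851 promoters. The full element TGACGTCA, which contains it, was found in 1 of the 37 and in 1.55% of all promoters. The promoters were also searched for motifs of the transcription factors AP-1, Egr and NRF1. AP-1 was found in 2 of the 37 enzyme promoters (5.41%) and in 6.75% of all, and Egr in 0 and in 0.536%. NRF1 was found in 5 of the 37 (13.5%) and in 4.98% of all. The full element and these motifs stood in 0 of the 6 promoters of D1_CC against D1_CS, and the GC box in 3. Differences in motif shares were not tested. A match is a description of letters, and not a binding site.

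Prmt1 had 7.50, 13.6 and 37.7 CPM in D1_CC, against 4.58, 8.53 and 11.5 CPM in D1_CS, and 8 of 10 libraries exceeded the D1_CS highest (log2 change 1.67 ± 0.40, edgeR adjusted p = 0.0170). Prmt5, the main symmetric arginine methyltransferase, had 10.4, 15.2 and 44.0 CPM in D1_CC, against 9.10, 11.8 and 13.4 CPM in D1_CS (log2 change 1.36 ± 0.38, edgeR adjusted p = 0.0227). The D1_CC medians of 13.6 CPM for Prmt1 and 15.2 CPM for Prmt5 lay under the D1_SS medians of 15.8 and 16.7 CPM. The same held for the rest of the called genes. Kat2a had medians of 15.2 CPM in D1_CC and 16.3 CPM in D1_SS, and Kat7 41.3 and 43.5 CPM. Ehmt2 had 29.3 and 32.9 CPM, and Hdac2 51.8 and 61.5 CPM, in the same order. Ehmt2 had 14.7, 29.3 and 96.0 CPM in D1_CC, against 16.2, 21.8 and 34.3 CPM in D1_CS, with ranges that overlapped (log2 change 1.34 ± 0.41, edgeR adjusted p = 0.0328). Hdac2 had 34.8, 51.8 and 142 CPM in D1_CC, against 23.9, 41.1 and 56.6 CPM in D1_CS, and 4 of 10 libraries exceeded the D1_CS highest (log2 change 1.16 ± 0.37, edgeR adjusted p = 0.0416).

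The 6 genes shared short spans and high values in the same libraries. Their median span was 13082 bp, against 45730 bp for the other 43 enzymes, and across the 49 genes the log2 change correlated with log2 span at r = -0.69 and rho = -0.67, a description across genes that share libraries. The same correlation for D1_SC minus D1_SS was r = 0.11. The called genes also had a higher level, with a median of 4.69 times the background, against 2.69 times for the others. Across the 49 genes the log2 change in D1_CC minus D1_CS correlated with log2 level at r = 0.62 and rho = 0.72. Counts are divided by span in that level, so span and level cannot be told apart here. Libraries 1, 3 and 7 of D1_CC, which held the highest values of all 6, had backgrounds of 16.5%, 4.03% and 30.5%, against a group median of 55.7%, and genes over 100 kb took 38.6%, 34.1% and 44.3% of all their counts, against a median of 50.6%. Leaving out library 1 or library 3 of D1_CC left 0 called enzymes. The count was 10 without library 6 of D1_CC and 11 without library 8. It was 2 without library 1, 2 or 7 of D1_CS, 3 without library 6 or 8 and 20 without library 3, whose background was 10.1%. The number of all genes called in these fits is not given here either. Without libraries failing the quality rule, and with the background share as a covariate, 0 were called (12 and 11 at an unadjusted p under 0.05). Summed CPM of the D2 neuron markers moved with the groups, and without the 4 libraries labelled D1 that read as the other line 6 enzymes were called. That fit called 3453 of all 37688 genes.

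**Figure D4:**
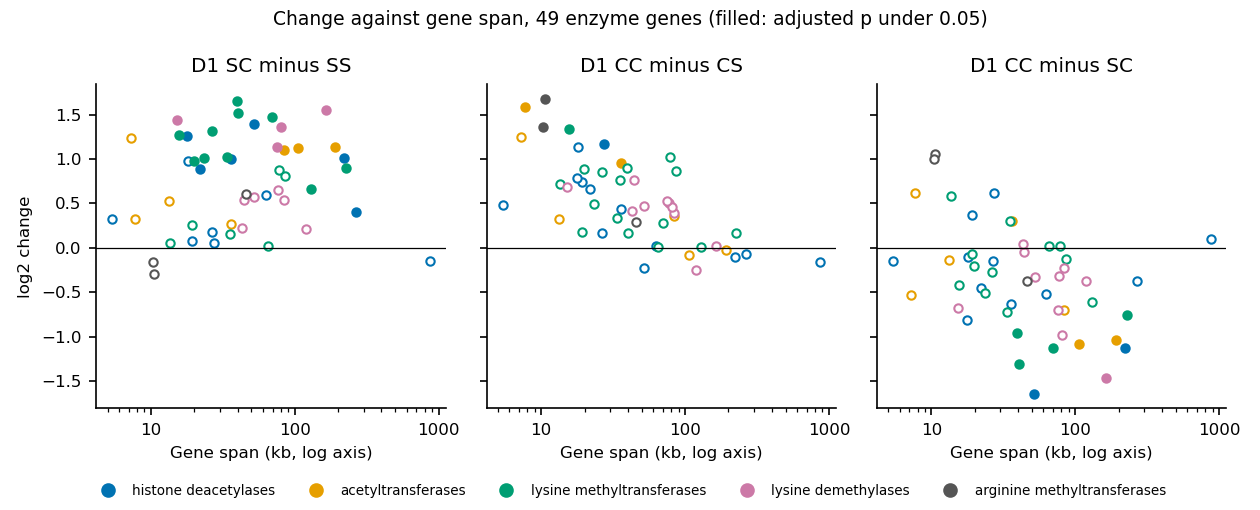
Log2 change against gene span in kilobases (log axis) for the 49 enzyme genes in D1_SC minus D1_SS, D1_CC minus D1_CS and D1_CC minus D1_SC, coloured by role, with filled points at an edgeR adjusted p under 0.05. The change falls with span in the middle panel (r = -0.69) and less so in the right panel (r = -0.42), and shows little relation to it in the left panel (r = 0.11).

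D1_CC against D1_SC sets a challenge after repeated cocaine beside a first challenge. Of the 49 enzymes 9 fell in D1_CC and none rose, where 10.5% of all genes were called in either direction and 7.86% as lower. The 9 were Hdac7, Hdac8, Kat2b, Kat6b, Kmt2c, Kmt2d, Kmt2e, Dot1l and Kdm4c. All 9 stand among the 23 called in D1_SC against D1_SS, and the comparisons share the D1_SC libraries. The median log2 change was -0.37 over the enzymes and 0.19 over all genes. The split by direction rests on the scaling: RLE called 14 lower and 2 higher, and library totals called 6 lower and 4 higher. Of all 37721 genes these fits called 4054 and 3415 in either direction. The 9 genes had a median span of 105860 bp, against 34514 bp for the other 40, and across the 49 genes the log2 change correlated with log2 span at r = -0.42, again a description across genes that share libraries.

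Hdac8 had 38.1, 76.5 and 87.4 CPM in D1_CC, against 66.9, 104 and 152 CPM in D1_SC, and a log2 change of -1.13 ± 0.21 (edgeR adjusted p = 0.00205). Hdac7 had 11.8, 26.6 and 46.3 CPM in D1_CC, against 16.7, 28.7 and 196 CPM in D1_SC (log2 change -1.64 ± 0.32, edgeR adjusted p = 0.00209). Kdm4c had 108, 133 and 155 CPM in D1_CC, against 124, 159.9 and 818 CPM in D1_SC (log2 change -1.47 ± 0.30, edgeR adjusted p = 0.00259). These 3 genes were called in all 19 fits that each left out 1 library, with smallest changes of -0.77, -0.83 and -0.69, and the ranges of D1_CC and D1_SC overlapped for each.

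Kmt2d had 39.1, 86.4 and 125 CPM in D1_CC, against 77.5, 117 and 214 CPM in D1_SC, with ranges that overlapped and a log2 change of -0.96 ± 0.31 (edgeR adjusted p = 0.0422). Kat2b had 33.3, 73.4 and 83.0 CPM in D1_CC, against 47.8, 58.5 and 348 CPM in D1_SC, so that its median was higher in D1_CC, and its log2 change of -1.09 was -0.21 (edgeR adjusted p = 0.236) without library 5 of D1_SC. Dot1l had a log2 change of -1.31, and of -0.69 (edgeR adjusted p = 0.147) without library 9 of D1_SC. Without that library Kmt2d had -0.56 (edgeR adjusted p = 0.202) and Kmt2e -0.74 (edgeR adjusted p = 0.140). Kat6b, Kmt2c and Kmt2e had log2 changes of -1.03, -0.76 and -1.12. Prmt1 and Prmt5 lay the other way without passing, at 1.06 ± 0.38 and 1.00 ± 0.37 (edgeR adjusted p = 0.0624 and 0.0680). The count was 3 without library 2, 4 or 9 of D1_SC, 4 without library 5, 15 without library 6, 16 without library 7, and 19 without library 3 of D1_CC. Counts over all genes are likewise not given for these fits. Without the 4 libraries labelled D1 that read as the other line, 5 enzymes and 1957 of all 37688 genes were called. With the background share as a covariate 13 enzymes were called higher and 3 lower, among them Prmt5 at 1.25 and Kdm4c at -0.92. That fit called 7045 of all 37721 genes. Without libraries failing the quality rule 0 enzymes were called (6 at an unadjusted p under 0.05).

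In the remaining D1 comparisons edgeR called none of the enzymes. D1_CS against D1_SS, the state 30 days after repeated cocaine, had 0 called enzymes and 0% of all genes called, and 1 enzyme at an unadjusted p under 0.05. That gene was Prmt1, with 4.58, 8.53 and 11.5 CPM in D1_CS, against 5.71, 15.8 and 21.6 CPM in D1_SS (log2 change -0.91 ± 0.39, edgeR adjusted p = 1.00). Kat2a and Prmt5 followed with log2 changes of -0.64 ± 0.36 and -0.52 ± 0.37 (edgeR adjusted p = 1.00 and 1.00). DESeq2 also called 0 of the enzymes, whereas limma with library weights called 31, all lower, among the 16547 genes it called of all 37721.

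D1_CC against D1_SS, cocaine at both steps against saline throughout, had 0 called enzymes and 0% of all genes called, with 13 enzymes at an unadjusted p under 0.05 in edgeR and 0 called by DESeq2. Setd1b, which trimethylates lysine 4, had 17.4, 34.3 and 72.8 CPM in D1_CC, against 19.5, 21.5 and 35.8 CPM in D1_SS (log2 change 1.04 ± 0.35, edgeR adjusted p = 0.695). Kat2a had 8.49, 15.2 and 45.2 CPM in D1_CC, against 7.35, 16.3 and 20.9 CPM in D1_SS (log2 change 0.94 ± 0.33, edgeR adjusted p = 0.695). Kmt2a had 151, 322 and 587 CPM in D1_CC, against 151, 205 and 337 CPM in D1_SS (log2 change 0.90 ± 0.32, edgeR adjusted p = 0.695). For all 3 the D1_CC range extended above that of D1_SS and otherwise overlapped it, and the Kat2a median was lower in D1_CC.

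The interaction asked whether the challenge changed an enzyme differently after repeated cocaine than after repeated saline. EdgeR called 0 of the 49 and 0% of all genes, with 14 enzymes at an unadjusted p under 0.05. DESeq2 called 10 enzymes, RLE scaling 4 and library totals 1 (Prmt1), beside 2939, 1193 and 692 of all 37721 genes. The smallest p belonged to Hdac8, at -1.12 ± 0.30 (edgeR adjusted p = 0.0530), Prmt1, at 1.97 ± 0.55 (edgeR adjusted p = 0.0553), and Hdac7, at -1.61 ± 0.45 (edgeR adjusted p = 0.0553). In DESeq2 these had adjusted p = 0.00803, 0.00798 and 0.0162.

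In D2 nuclei the edgeR test called 1 enzyme over the 6 comparisons. D2_CC against D2_CS gave Kmt2b (ENSMUSG00000006307.16), a lysine 4 methyltransferase close to Kmt2a, as lower, where 0.252% of the 36090 genes were called, all lower. Kmt2b had 11.9, 29.4 and 50.4 CPM in D2_CC, against 0, 28.3 and 719 CPM in D2_CS, and the medians differed little. The highest value came from library 4 of D2_CS, which holds 1367040 counts and fails the quality rule, and the next library had 53.6 CPM. The log2 change of -2.36 ± 0.55 (edgeR adjusted p = 0.0458) became -0.21 (edgeR adjusted p = 1.00) without that library, and 0 enzymes were called in 10 of the 20 fits that left out 1 library. DESeq2 gave -0.02 and limma with library weights 0.11, and neither called an enzyme.

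D2_SC against D2_SS, the first challenge, had 0 called enzymes and 0% of all genes called in edgeR. In that fit 4 enzymes had an unadjusted p under 0.05, and DESeq2 called 0. Limma with library weights called 12 enzymes, beside 4892 of all 36090 genes. Sirt2, an NAD-dependent deacetylase rich in oligodendrocytes, had 24.8, 34.0 and 52.4 CPM in D2_SC, against 20.4, 24.1 and 32.1 CPM in D2_SS (log2 change 0.72 ± 0.29, edgeR adjusted p = 0.923). Dot1l had 34.9, 56.8 and 115 CPM in D2_SC, against 31.1, 37.6 and 98.5 CPM in D2_SS (log2 change 0.74 ± 0.36, edgeR adjusted p = 0.939). Kmt2d had 33.8, 115 and 157 CPM in D2_SC, against 49.96, 64.3 and 142 CPM in D2_SS (log2 change 0.68 ± 0.37, edgeR adjusted p = 0.973). The median of Kmt2d was higher in D2_SC and the ranges overlapped across most of their width.

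D2_CS against D2_SS had 0 called enzymes in edgeR (3 at an unadjusted p under 0.05), where 0.0859% of all genes were called. DESeq2 called 0 enzymes, and limma with library weights 6, beside 4155 of all 36090 genes in limma. Kmt2b came closest, at 2.38 ± 0.56 (edgeR adjusted p = 0.0586), and library 4 of D2_CS held its highest value here too. Hdac5 had 28.0, 37.5 and 111 CPM in D2_CS, against 25.5, 29.4 and 39.8 CPM in D2_SS (log2 change 0.95 ± 0.33, edgeR adjusted p = 0.371). D2_CC against D2_SS had 0 called by edgeR, 0 by DESeq2 and 0 at an unadjusted p under 0.05. Limma with library weights called 14 enzymes there, beside 8423 of all 36090 genes. D2_CC against D2_SC and the D2 interaction had 0 called by edgeR and DESeq2, with 6 and 12 at an unadjusted p under 0.05 in edgeR. EdgeR called 0% of all genes in each of these 3 comparisons.

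Between the lines edgeR called no enzyme. D1_SS against D2_SS had 0 called by edgeR (0 at an unadjusted p under 0.05) and 0 by DESeq2, where 0.0255% of the 39250 genes were called. D1 against D2 averaged over the 4 treatments had 0 called by edgeR (2 at an unadjusted p under 0.05) and 0 by DESeq2. EdgeR called 0.204% of genes there. Limma with library weights called 11 enzymes, all higher in D1, beside 5232 of all 39250 genes. Kmt2b and Hdac7 had the smallest p, with D1 minus D2 changes of -0.51 ± 0.23 and 0.30 ± 0.14 (edgeR adjusted p = 0.711 and 0.797).

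The response to a first challenge was not shown to differ between D1 and D2. The test of that difference called 0 of the 49 enzymes in edgeR and in DESeq2 (7 at an unadjusted p under 0.05 in edgeR), where 0.028% of all genes were called. Its median over the enzymes was 0.47, against 0.00 over all genes, and Kdm4c had the smallest p at 1.34 ± 0.42 (edgeR adjusted p = 0.421). Kmt2d had a difference of 0.94 ± 0.52 (edgeR adjusted p = 0.967). For repeated cocaine with a saline challenge 0.0892% of genes and 0 enzymes were called (3 at an unadjusted p under 0.05), and for cocaine at both steps 0% and 0 enzymes (2 at an unadjusted p under 0.05), and DESeq2 called 0 enzymes in both.

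Other genes of the same pathways were counted in the same fits. In D1_SC against D1_SS, 4 of 10 other acetyltransferases and coactivators, 12 of 29 other methyltransferases, 6 of 15 other demethylases, 9 of 49 complex subunits, 6 of 32 readers of modified lysines and 0 of 5 other sirtuins were called, all higher, where 9.7% of all genes were called higher. Of all genes, 0 were called without libraries failing the quality rule and 2 with the background covariate. The acetyltransferase Ep300 (p300) had a log2 change of 1.40 ± 0.32 (edgeR adjusted p = 0.00577). Among the demethylases Kdm5c, an X-linked eraser of lysine 4 methylation, had 1.65 ± 0.39 (edgeR adjusted p = 0.00660), and among the methyltransferases Setd5 had 1.52 ± 0.34 (edgeR adjusted p = 0.00482). Jarid2, a subunit of the Polycomb complex that carries Ezh2, had 1.38 ± 0.27 (edgeR adjusted p = 0.00322).

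In D1_CC against D1_CS 1 of 10 acetyltransferases and coactivators, 0 of 29 methyltransferases, 2 of 15 demethylases, 10 of 49 complex subunits, 6 of 32 readers and 0 of 5 sirtuins of these lists were called, all higher, where 8.28% of all genes were called higher. In this comparison 0 genes of the whole table were called without failing libraries or with the background covariate. They included Men1 (menin), which tethers Kmt2a and Kmt2b complexes, at 1.84 ± 0.48 (edgeR adjusted p = 0.0179), and the acetyl-lysine reader Brd2 at 1.93 ± 0.43 (edgeR adjusted p = 0.0170). In D1_CC against D1_SC 2 of 10 acetyltransferases and coactivators, 7 of 29 methyltransferases, 3 of 15 demethylases, 5 of 49 subunits, 4 of 32 readers and 0 of 5 sirtuins were called, all lower, where 7.86% of all genes were called lower and 0 genes of the whole table without failing libraries. Among them was Kmt5c, a lysine 20 methyltransferase of histone H4, at -1.40 ± 0.28 (edgeR adjusted p = 0.00235). The median log2 change of each list in D1_SC against D1_SS lay between 0.29 for the other sirtuins and 0.86 for the other acetyltransferases, above the -0.07 of all genes.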

How the data were processed

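The deposited table holds raw gene counts of the authors for 75 libraries and 55401 gene identifiers, and 0 of its sample columns were left unused. Per the submitters' processing notes, featureCounts, DESeq2 and the mm10 build were used; the aligner, the annotation and the strand setting are not given in the sources used here, so genes that overlap or run antisense share an uncertain count. The authors also deposited FPKM values, which were used to find their length: it equals the full gene span within 1 base for 54271 of 54271 genes compared with GENCODE. Libraries were made with the SMARTer Stranded Total RNA-seq kit, per the labels' protocols.

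Counts were tested with edgeR 4.0.16 (quasi-likelihood, TMM, filterByExpr) in R 4.3.3, per Cre line with its 4 groups, and over all libraries between lines. P-values were adjusted by Benjamini-Hochberg over all genes tested, at 0.05, and all 49 enzyme genes passed the filter in each fit. The script was tested on simulated counts. Alternatives were DESeq2 1.42.0, RLE scaling, no filter, limma 3.58.1 with library weights, the background share as a covariate, a replicate block, leaving out each library in turn where genes were called, and leaving out the 18 libraries that fail a quality rule. A library fails with a total under its line median divided by 3, with genes of at least 10 counts, or its median Spearman correlation with its line, over 4 scaled MADs low, or with a Drd1 to Drd2 ratio of the other line. Chosen after seeing the data were leaving out 4 libraries that read as the other line, subtracting the background, and library totals with no scaling factor.

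The enzyme genes, lists and tests were chosen with earlier results of these data known. In each comparison values are given for up to 8 called genes with the smallest p, or the 3 with the smallest p where none was called, plus Hdac4, Hdac5, Sirt1, Ehmt2, Kdm6b, Prmt1 and Setdb1, the 5 highest and 5 lowest levels, and up to 3 called genes of each pathway list. Other enzymes were named after their values were seen.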

Additional observations from a re-analysis of the deposited data

Results flagged for a closer look

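In 70 sets of 1 gene in 1 group, a single library stood far from the other libraries of its group in 13. The rule flags about 1 in 20 sets of normally spread values. Many sets here were picked from called genes, and sets share libraries, so that rate does not apply to them. Library 5 of D1_SC, which has 651445 counts in all, held 6 of the 13 flagged values. It had 818.18 CPM of Kdm4c (next library 358), 423.67 CPM of Kdm5a (next 111), 348.46 CPM of Kat2b (next 84.5), 196.49 CPM of Hdac7 (next 101), 133.55 CPM of Sirt1 (next 56.5) and 101.31 CPM of Setdb1 (next 51.6). Library 9 of D1_SC held 203.29 CPM of Dot1l, with 92.2 CPM in the next. Library 3 of D1_CS held 34.3 CPM of Ehmt2, with 23.3 CPM in the next. In D1_SS, library 8 held 52.149 CPM of Hdac5 (next 38.3) and library 5 held 35.845 CPM of Setd1b (next 28.0). Library 4 of D2_CS held 719.07 CPM of Kmt2b, with 53.6 CPM in the next. Library 9 of D2_SS held 142.29 CPM of Kmt2d (next 85.3) and 98.537 CPM of Dot1l (next 54.1). The cause was not tested.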

How the results depend on the processing

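The number of enzyme genes called in D1_SC against D1_SS, 23 of 49, was 13 with limma and library weights, 2 with the background subtracted, 1 on library totals, and 0 without libraries failing the quality rule and 0 with the background covariate, and 3 to 30 with each library left out. D1_CC against D1_CS, 6, was 2 with RLE scaling, 14 with limma, 0 without failing libraries, 0 with the covariate, 0 with the background subtracted and 0 on library totals, and 0 to 20 with each library left out. D1_CC against D1_SC, 9, was 19 with DESeq2, 16 with RLE, 34 with limma, 0 without failing libraries, 16 with the covariate and 5 without the 4 libraries that read as the other line, and 3 to 19 with each library left out. The D1 interaction, 0, was 10 with DESeq2, 4 with RLE, 7 with the covariate and 1 on library totals. Of all 37721 genes these fits called 2939, 1193, 2693 and 692. For D1_CC against D1_SC DESeq2 called 7575 of all genes, RLE 4054, limma 17029 and the covariate 7045. The fit without the 4 libraries that read as the other line called 1957 of 37688. Counts over all genes are not given for the fits with each library left out. Limma called 2736 of all genes for D1_SC against D1_SS and 4545 for D1_CC against D1_CS.

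With limma the counts were 31 for D1_CS against D1_SS (16547 of all 37721 genes) and 12 for D2_SC against D2_SS (4892 of 36090). They were 6 for D2_CS against D2_SS (4155 of 36090) and 14 for D2_CC against D2_SS (8423 of 36090). For D1 against D2 averaged limma called 11 (5232 of 39250), and edgeR called 0 enzymes in all these comparisons. With no filter D2_CS against D2_SS had 1 (104 of 55245). D2_CC against D2_CS, 1, was 0 with DESeq2, RLE, limma, the background subtracted, library totals, a replicate block and without failing libraries, and 0 to 1 with each library left out. On library totals Hdac4 turned to -0.18 in D1_SC against D1_SS, and with limma Kmt2b turned to 0.11 in D2_CC against D2_CS. Of 39 called gene values 35 passed with DESeq2, 29 with RLE and 7 on library totals. The causes were not tested.

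Same-numbered libraries correlated between -0.71 and 0.77 in D1 (20 of 52 pairs over 0.1) and -0.78 and 0.73 in D2 (23 of 55). Libraries of unlike number had 182 of 460 pairs over 0.1 in D1 and 198 of 486 in D2. Medians were -0.03 (D1) and 0.05 (D2) for same numbers, against 0.02 and 0.01 for unlike ones. Both kinds spread widely, so these values show no clear pairing by number and cannot exclude one. With a replicate block 15 enzymes were called in D1_SC against D1_SS, 6 in D1_CC against D1_CS and 7 in D1_CC against D1_SC. Of all 37721 genes 1880, 2787 and 1469 were called in that order. Libraries under 30000 counts limit what D2_CC and D2_CS can show.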
